A study of Mus musculus with 8 samples.

Results

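This account follows 10 genes of protein folding in the endoplasmic reticulum (ER) and of the unfolded protein response, among the 24942 genes of an RNA sequencing study of mouse retinal ganglion cells. The genes were chosen by symbol as chaperones and factors of the ATF6 and XBP1 arms of that response, by a rule that uses no measured value but was written with earlier results of these data known, and all 10 were found in the table. Retinal ganglion cells are the neurons whose axons form the optic nerve. They were purified at postnatal day 8 by immunopanning (capture on plates coated with antibodies), and RNA was taken straight from the plate. There were 4 libraries from NPC1-deficient mice and 4 from wildtype littermates, all under the strain name BALB/cNctr-Npc1m1N/J and with no treatment named. The Npc1 mutation of this strain is in every cell of the animal, so the ganglion cells were not the only cells to lack the protein, which carries cholesterol out of lysosomes. How many animals went into a library is not stated, so p-values measure the spread between these libraries, which may be partly technical. Sex-linked transcripts, given below, differed among the wildtype libraries, so these were not all drawn from the same animals.

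Proteins that enter the secretory pathway fold in the ER with the help of chaperones and enzymes that form disulfide bonds. When unfolded protein builds up, 3 sensors in the ER membrane, encoded by Ern1 (IRE1), Atf6 and Eif2ak3 (PERK), start the unfolded protein response. IRE1 splices the messenger RNA of Xbp1 into the form that encodes an active transcription factor, and ATF6 moves to the Golgi, where the proteases encoded by Mbtps1 and Mbtps2 release its active part. The same proteases release the SREBP factors that switch on cholesterol synthesis. Both arms raise the genes described here: the chaperones themselves and the machinery that sends misfolded proteins to degradation.

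Both arms are known to act through short promoter elements, and these are shown as background because several of the 10 genes hold them. The ER stress response element (ERSE) was searched as CCAAT, 9 bases of any kind and CCACG, and its shorter variant ERSE-II as ATTGG, any 1 base and CCACG, on both strands of RefSeq promoter windows (GRCm38.p6) from 250 bases before to 50 after the transcription start. A window was given for 9 of the 10 genes, all but Manf. In the stretches below the letters that match are in capitals, and each stretch is written 5′ to 3′ on the strand of its gene.
Hspa5, chr2:34772020-34772049, plus strand: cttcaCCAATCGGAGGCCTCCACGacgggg
Hsp90b1, chr10:86705602-86705691, minus strand: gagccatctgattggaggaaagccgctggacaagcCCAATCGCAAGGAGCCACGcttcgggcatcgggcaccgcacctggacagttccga
Hsp90b1, chr10:86705510-86705599, minus strand: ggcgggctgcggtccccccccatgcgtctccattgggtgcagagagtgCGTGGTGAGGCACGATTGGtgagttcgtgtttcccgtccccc
Creld2, chr15:88819485-88819574, plus strand: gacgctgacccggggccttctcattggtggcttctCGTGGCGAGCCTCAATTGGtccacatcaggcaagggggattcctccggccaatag
Herpud1, chr8:94386338-94386427, plus strand: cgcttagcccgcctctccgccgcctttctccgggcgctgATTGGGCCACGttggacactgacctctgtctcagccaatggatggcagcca
ERSE was matched in 3 of the 9 windows (33.3%), those of Hspa5, Hsp90b1 and Creld2, and Hsp90b1 held it in 2 places, the second on the opposite strand. Of all 27025 genes with a window, 37 (0.137%) held it. ERSE-II was matched in Herpud1 alone among the 9, and in 12 of 27025 genes (0.0444%). The stretch of Hspa5 is short because GENCODE M21 starts a transcript upstream of it, so that the match, 65 to 47 bases before the RefSeq start, lies inside the M21 gene. The core of another element of the pathway, TGACGTG, was matched in Hspa5 alone of the 9, against 601 of 27025 genes (2.22%). The elements were defined on known targets such as Hspa5, and the 10 genes were chosen as genes of these arms. A higher share of matches than over all genes was thus set by the choice and is no result of these data. A match of letters does not show that a factor binds there, and the windows without a match say nothing about the factor.

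Before the members are described, the libraries need a short account. Library totals ran from 33030175 to 44050118 reads. Npc1 itself averaged 787 ± 69.1 normalized reads (reads over the size factor of the library; SD, n = 4) in wildtype, against 85.9 ± 36.0 under NPC1 deficiency (SD, n = 4), and the groups did not overlap. A field of the labels goes against the titles: in it, all libraries numbered 1 or 2 are wildtype and all numbered 3 or 4 homozygous, whatever their title. Groups follow the titles and descriptions, with which Npc1 goes, and the 2 sides of that field are called the library sets. What else separates the sets is not given in the sources used here. Over the whole table, 16 of 15386 genes tested differed between genotypes (limma adjusted p under 0.05), which is 0.104%: 6 were higher (0.039%) and 10 lower (0.065%), a split that upper-quartile scaling moved to 3 and 11, and DESeq2 to 48 and 198. NPC1-deficient 2 stood apart from the rest of its group, with a chi-square per degree of freedom of 47.8 to 54.8 against each. The most alike pair was NPC1-deficient 3 and 4 at 4.54, and the other pairs within a group gave 8.16 to 28.7. That pair is the whole NPC1-deficient side of libraries 3 and 4, and how far its libraries are independent is not known.

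Markers of the labelled cell type were abundant, with a summed normalized count over 10 ganglion cell markers of 339695 to 359639 in the wildtype group and, without overlap, 362313 to 393667 in the NPC1-deficient group. Fold changes were positive for 8 and negative for 2 of the 10, with a median log2 of 0.06, and 0 passed by limma. Taken singly, 1 of the 10 was higher without overlap, beside 1.86% of all genes. RNA of other cells was present at lower levels, with mostly negative fold changes. Of these 0 passed by limma for endothelium, bipolar and amacrine cells, cones, rods and microglia. For Müller glia and astrocytes 1 of 4 tested passed, beside 0.104% of all genes. The summed count of 10 microglial markers was 2081 to 10611 in the wildtype and 1100 to 2406 in the NPC1-deficient group, overlapping ranges with a negative fold change for 10 of 10. The sum of 8 rod markers was 2487 to 6341 and 1444 to 2043, and that of 6 amacrine markers 2437 to 4647 and 1401 to 2090, with negative fold changes for all members of both lists. Markers of Müller glia and astrocytes summed to 10581 to 11543 and 8362 to 9258, negative for 4 of 4 tested. Lower without overlap were 4 of 8 rod, 4 of 6 amacrine, 3 of 4 tested glial and 1 of 10 microglial markers, beside 2.41% of all genes. The median log2 fold changes of these lists were -1.12, -1.54, -0.64 and -1.47. For bipolar cells and cones no marker was separated in this way. Endothelial and pericyte markers were mixed, with 1 positive and 4 negative. Of the 5 tested, 1 was higher and 1 lower without overlap. Of the microglial, rod, amacrine and glial lists no marker was at 0 in any library. Xist, a transcript of female cells, ran from 18.2 to 595 among the wildtype and from 0 to 68.1 among the NPC1-deficient libraries. The sum of 4 Y-linked genes was 45.6 in wildtype 1 and 3093 in wildtype 2. In wildtype 3 and 4 it was 1241 and 1508, with Xist at 238 and 164, so both held RNA of both sexes. Among the NPC1-deficient libraries the Y-linked sum ran from 2597 to 3788. The makeup by sex thus differed too. The part of these differences in the values below was not tested. In such bulk samples fewer cells of a type and less RNA per cell cannot be told apart.

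No difference between NPC1-deficient and wildtype ganglion cells was detected for any of the 10 ER genes. By limma over all genes tested 0 of 10 passed after adjustment and 0 of 10 had an unadjusted p under 0.05, where 6.76% of all genes did. The edgeR quasi-likelihood test and DESeq2 on the recovered reads also called 0 of 10, against 0.104% and 1.6% of all genes. The groups overlapped for all 10, where 4.27% of all genes showed no overlap (1.86% higher and 2.41% lower). The 10 log2 fold changes ran from -0.07 (Dnajb9) to 0.08 (Xbp1), 7 positive and 3 negative, with a median of 0.02 beside 0.0050 over all genes tested. All 10 had a mean well above the minimum of 10 for testing. The 95% intervals give the size of difference that the data still allow. For Hspa5 the NPC1-deficient level was 102% of wildtype, with an interval from 91.7% to 114%, and for Hsp90b1 it was 99.8%, from 90.8% to 110%. The widest interval was that of Creld2, from 84.9% to 129%. So the highest upper bound among the 10 was 129% of wildtype and the lowest lower bound that of Sdf2l1, 83.4%; differences within those intervals cannot be told from none.

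**Figure D1:**
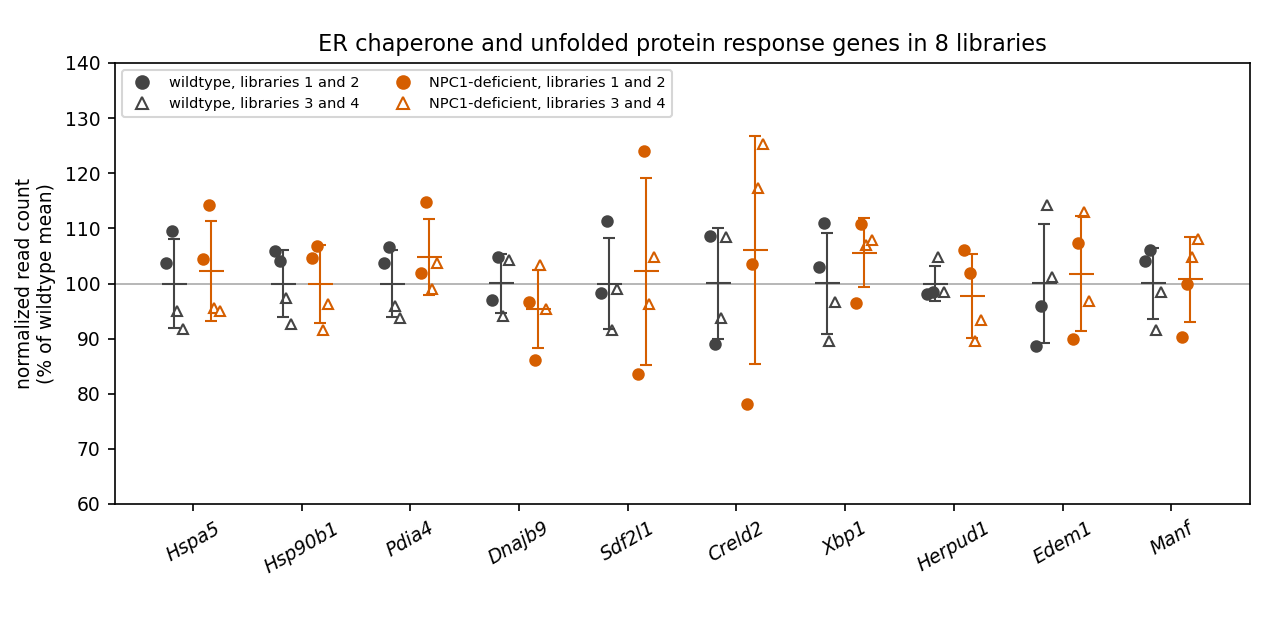
Normalized read count of each of the 10 genes in each library, as a percent of the wildtype mean of that gene (y axis, from 60% to 140%), with circles for libraries 1 and 2, triangles for libraries 3 and 4, and mean ± SD (n = 4) as bars. Wildtype and NPC1-deficient points overlap for every gene, and for Hspa5 and Hsp90b1 the triangles lie below the circles in both groups.

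The 2 large chaperones of the ER lumen were among the more abundant transcripts. Hspa5 (ENSMUSG00000026864, chr2:34771970-34777547, plus strand, protein coding) encodes BiP, which binds unfolded chains and holds the sensors inactive. Wildtype libraries 1 to 4 had 11895, 12549, 10893 and 10528 normalized reads, and NPC1-deficient libraries 1 to 4 had 11974, 13092, 10953 and 10886. In each group libraries 1 and 2 were high and libraries 3 and 4 low, while the genotypes overlapped. This gave a log2 fold change of 0.03 (SE 0.07, limma adjusted p = 0.995). Hsp90b1 (ENSMUSG00000020048, chr10:86690209-86705509, minus strand) encodes GRP94, the lumenal member of the HSP90 family. It stood at 6683, 6561, 6139 and 5844 in wildtype and 6600, 6739, 5780 and 6078 in NPC1-deficient libraries, with the same order of the sets and overlap of the genotypes. Between genotypes the log2 difference came to -0.0024 (SE 0.06, limma adjusted p = 0.997). Of its exonic length 10.3% overlaps the opposite-strand gene 1810014B01Rik, and with a kit that keeps no strand the reads there cannot be assigned.

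The enzymes and helpers of folding followed, at lower levels. Pdia4 (ENSMUSG00000025823, chr6:47796141-47813430, minus strand) encodes a disulfide isomerase. Its counts were 2177, 2238, 2014 and 1969 in wildtype and 2140, 2411, 2079 and 2178 in NPC1-deficient libraries, highest in NPC1-deficient 2, a log2 fold change of 0.07 (SE 0.06, limma adjusted p = 0.983). Dnajb9 (ENSMUSG00000014905, chr12:44205559-44210326, minus strand) encodes a partner of BiP that also holds back IRE1. It had 2030, 2193, 1970 and 2183 in wildtype and 2022, 1805, 2163 and 1997 in NPC1-deficient libraries, a log2 fold change of -0.07 (SE 0.07, limma adjusted p = 0.983). Here NPC1-deficient 2, the highest library for Pdia4 and Sdf2l1, was the lowest of all 8. Sdf2l1 (ENSMUSG00000022769, chr16:17130138-17132383, minus strand), a component of ER chaperone complexes, was low, with 179, 203, 167 and 180 in wildtype and 152, 226, 176 and 191 in NPC1-deficient libraries. Both its lowest and its highest value lay in the NPC1-deficient group, with a log2 fold change of 0.02 (SE 0.13, limma adjusted p = 0.995). Creld2 (ENSMUSG00000023272, chr15:88819646-88826683, plus strand), an ER protein with disulfide isomerase activity, had 342, 281, 296 and 342 in wildtype and 246, 326, 370 and 394 in NPC1-deficient libraries. The NPC1-deficient libraries again spanned the wildtype ones, with a log2 fold change of 0.07 (SE 0.14, limma adjusted p = 0.995).

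Xbp1 (ENSMUSG00000020484, chr11:5520659-5525893, plus strand), the transcription factor gene of the IRE1 arm, is itself raised by ATF6. Its counts were 4538, 4890, 3944 and 4259 in wildtype and 4254, 4884, 4714 and 4758 in NPC1-deficient libraries, and the log2 fold change of 0.08 (SE 0.07, limma adjusted p = 0.971) was the largest of the 10. Counts per gene do not separate spliced from unspliced Xbp1, so IRE1 activity was not measured. Herpud1 (ENSMUSG00000031770, chr8:94386438-94395377, plus strand) encodes an ER membrane protein that organises the degradation of misfolded proteins. It had 2072, 2081, 2215 and 2080 in wildtype and 2241, 2153, 1890 and 1973 in NPC1-deficient libraries, a log2 fold change of -0.04 (SE 0.06, limma adjusted p = 0.995). The wildtype libraries lay close together apart from wildtype 3, and the NPC1-deficient ones lay on both sides of them. Edem1 (ENSMUSG00000030104, chr6:108828641-108859356, plus strand) speeds the disposal of misfolded glycoproteins. It had 755, 817, 972 and 862 in wildtype and 766, 915, 963 and 825 in NPC1-deficient libraries, nearly the same range in both, with a log2 fold change of 0.03 (SE 0.09, limma adjusted p = 0.995). Manf (ENSMUSG00000032575, chr9:106838312-106891979, minus strand) encodes an ER protein that is also secreted and protects neurons. Its counts were 3478, 3543, 3059 and 3288 in wildtype and 3020, 3338, 3504 and 3609 in NPC1-deficient libraries, a log2 fold change of 0.01 (SE 0.07, limma adjusted p = 0.995) whose sign turned under quantile (-0.00368) and upper-quartile scaling (-0.00493). Of its exonic length 4.71% overlaps the opposite-strand gene 4930524O07Rik.

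Levels were compared between genes only after division by exonic length (union of GENCODE M21 exons), as mean normalized reads per kilobase over the 8 libraries. Hspa5 led with 2742, and its range of 2489 to 3096 did not overlap that of Hsp90b1 at 1563. Hsp90b1 and Xbp1 (1395) overlapped in range. Below them Manf (952), Pdia4 (896), Herpud1 (895) and Dnajb9 (802) each overlapped the next, and all lay apart from Creld2 (238), Sdf2l1 (166) and Edem1 (133). The lengths take in every annotated isoform, so genes with long minor isoforms, such as Manf, come out lower on this scale.

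The library sets, unlike the genotypes, gave a call among the 10 genes; the effects of set and genotype were not tested against each other. In a fit with genotype and set as terms, 335 of 15386 genes (2.18%) differed between libraries 3 and 4 and libraries 1 and 2, with 268 (1.74%) lower in 3 and 4, and 1 of the 10 members, also lower, passed. At an unadjusted p under 0.05 stood 3 of 10 members and 17.7% of all genes. Hspa5 was lower in libraries 3 and 4, with a mean of 10815 against 12378 and a log2 difference of -0.19 (SE 0.04, limma adjusted p = 0.0442). The 2 sets of 4 libraries did not overlap for Hspa5 nor for Hsp90b1, both lower in 3 and 4, where 9.52% of all genes showed no overlap (5.89% lower and 3.63% higher). Hsp90b1 had a set difference of -0.16 (SE 0.04, limma adjusted p = 0.0719) and Pdia4 of -0.12 (SE 0.05, limma adjusted p = 0.249). Creld2 and Edem1 leaned the other way, at 0.23 (SE 0.12) and 0.16 (SE 0.08), with limma adjusted p of 0.346 and 0.342. The difference of Hspa5 was -0.19 within wildtype and -0.20 within NPC1-deficient libraries, so it did not hang on 1 genotype. Its call was less firm: Hspa5 no longer passed with upper-quartile scaling, without the filter on low values, within either genotype alone, or without any 1 of 6 of the 8 libraries. Hspa5 also passed by edgeR (adjusted p = 0.0436), and both Hspa5 and Hsp90b1 by DESeq2 (adjusted p = 0.00329 and 0.0240). The comparison of the sets was added after the values were seen. The sum of 5 cone markers was also lower in libraries 3 and 4, at 42.2 to 69.9 against 75.05 to 210. Its part in the set difference was not tested. It was picked after the values were seen, as the sums of every other marker list overlapped between the sets. These counts are low: only 3 of the 5 cone markers had enough reads to test, and 1 was at 0 in at least 1 library.

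**Figure D2:**
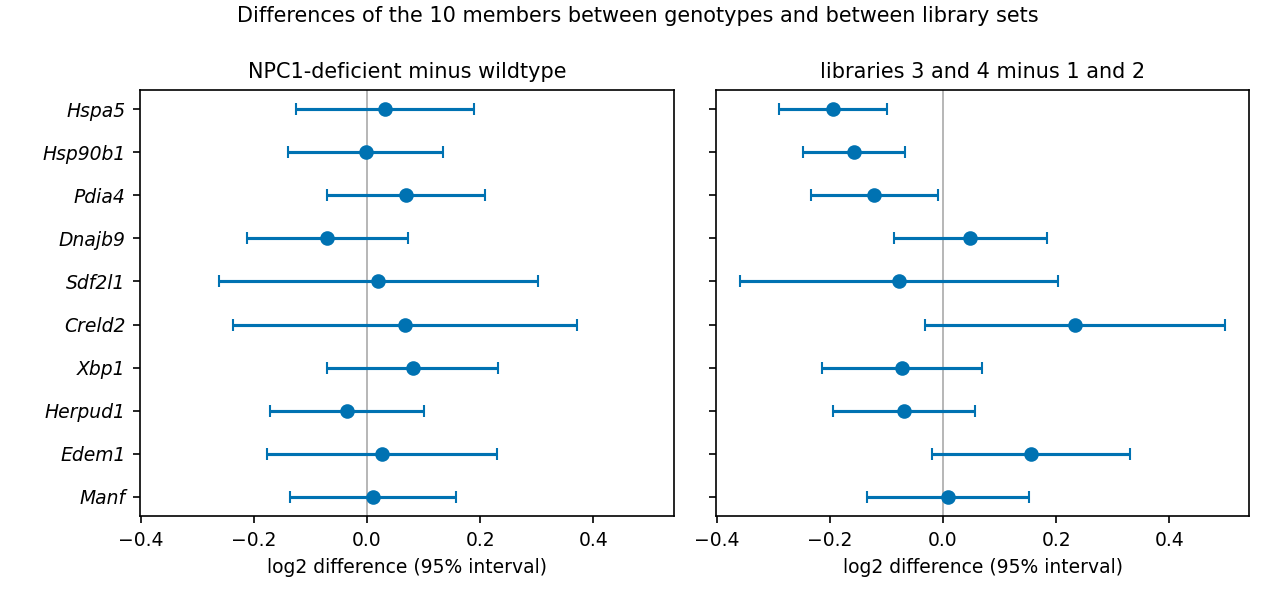
Log2 difference with its 95% interval (x axes) for each of the 10 genes, at left NPC1-deficient minus wildtype and at right libraries 3 and 4 minus libraries 1 and 2, both from limma over all genes tested. All 10 intervals at left include 0, and at right those of Hspa5, Hsp90b1 and Pdia4 lie below 0.

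The genotype difference kept its sign in the 2 sets for Hspa5 and Pdia4 and turned for the other members. A sign alone turns easily where differences are small, as for Hsp90b1 (0.0104 and -0.0152) and for Dnajb9 in libraries 3 and 4 (0.0032). For 0 of 10 did the difference of effects pass over all genes. The largest was that of Creld2, 0.39 (SE 0.22, limma unadjusted p = 0.0985), and the 3 with an unadjusted p under 0.05 were Manf, Xbp1 and Herpud1. Within libraries 1 and 2 Manf had NPC1-deficient values of 3020 and 3338 and wildtype values of 3478 and 3543, a log2 fold change of -0.14. Within libraries 3 and 4 its NPC1-deficient values were 3504 and 3609 and its wildtype values 3059 and 3288, a log2 fold change of 0.17. The difference of the genotype effect between the sets was 0.31 for Manf (SE 0.09, limma unadjusted p = 0.00674, adjusted p = 0.215), so it did not pass over all genes. Xbp1 had a genotype difference of -0.05 in libraries 1 and 2 and 0.21 in libraries 3 and 4 (difference of effects 0.26, SE 0.10, limma unadjusted p = 0.0317, adjusted p = 0.322). Herpud1 went in the reverse direction, with 0.08 and -0.15 (difference of effects -0.23, SE 0.09, limma unadjusted p = 0.0254, adjusted p = 0.302). In all 3 of 10 members had an unadjusted p under 0.05 for this difference, beside 13.4% of all genes, and 0 of 10 passed after adjustment, beside 0.078%. Each value within a set rests on 2 libraries of each genotype.

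**Figure D3:**
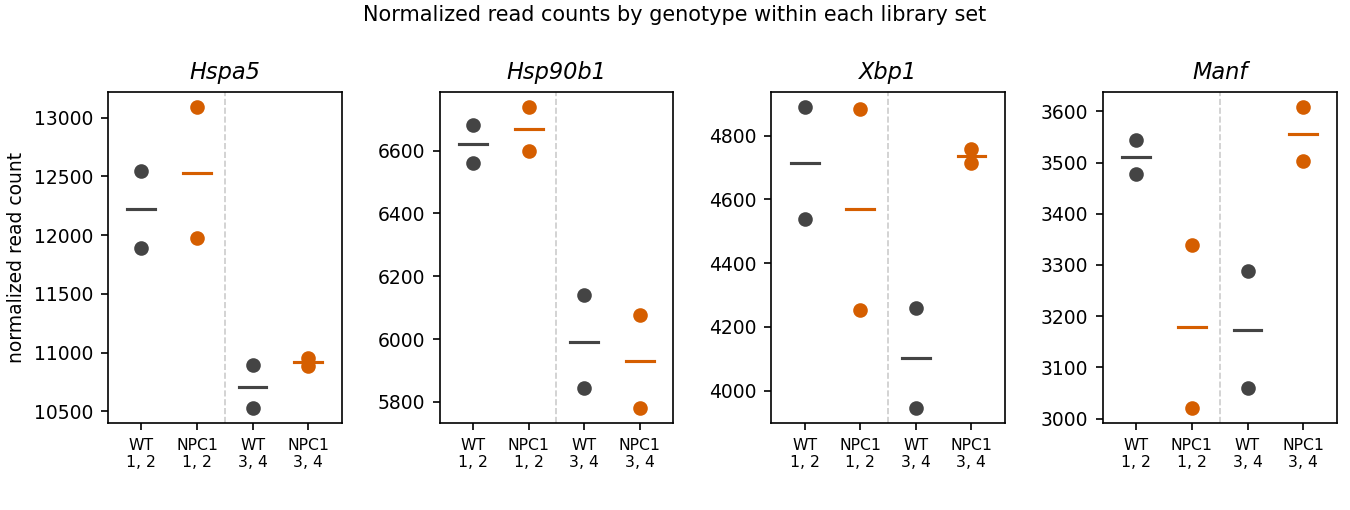
Normalized read counts (y axes, not starting at 0) of 4 of the genes in each library, by genotype (WT, wildtype; NPC1, NPC1-deficient) within libraries 1 and 2 and within libraries 3 and 4; bars are means of 2 libraries. The points of Hspa5 and Hsp90b1 lie lower at right of the dashed line than at left for both genotypes, and Hspa5 alone of the 10 passed the limma test between sets. For Manf the wildtype bar is the higher at left and the lower at right, a difference of effects that did not pass over all genes.

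Across libraries, once each group mean was removed, the members did not move as a single block. Over 45 pairs the median Pearson r was 0.14 (8 libraries), with 25 pairs positive, beside a median of -0.001 over all pairs of 11225 genes with a mean of at least 100. Within this Hspa5, Hsp90b1 and Pdia4 went together, with r of 0.91 for Hspa5 with Pdia4 (Spearman rho 0.86), 0.91 for Hspa5 with Hsp90b1 (rho 0.86) and 0.82 for Hsp90b1 with Pdia4 (rho 0.81). The other genes of folding were divided. With Hspa5, Hsp90b1 and Pdia4 in turn, Dnajb9 had r of -0.42, -0.56 and -0.51, and Creld2 -0.48, -0.53 and -0.13. Sdf2l1 had 0.52, 0.27 and 0.75. Xbp1 and Manf formed another pair at 0.86 (rho 0.69). Herpud1 ran against Manf at -0.83 (rho -0.76) and against Creld2 at -0.80 (rho -0.90). Only genotype means were removed, so differences between the library sets remain in these r. Hspa5, Hsp90b1 and Pdia4 are the members whose set interval lay below 0. Manf, Xbp1 and Herpud1 are those with a limma unadjusted p under 0.05 for the difference of effects between the sets. The groupings are thus not separate from the set results above. These are descriptions of 8 libraries that share set and composition, with no test.

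No change was detected among the sensors and proteases upstream. Of 12 genes of this list 0 passed by limma, 0 had an unadjusted p under 0.05, and 0 passed by edgeR or DESeq2; 6 fold changes were positive and 6 negative, with a median of -0.0019. Atf6 averaged 654 ± 71.6 normalized reads among wildtype and 641 ± 62.8 among NPC1-deficient libraries (SD, n = 4), a log2 fold change of -0.03 (95% interval -0.24 to 0.18). Eif2ak3 had 538 ± 36.4 and 554 ± 37.1, a log2 fold change of 0.04 (interval -0.13 to 0.21). Ern1 was scarce at 43.2 ± 5.51 and 48.3 ± 14.5, with a wide interval of -0.38 to 0.61. Mbtps2 had the largest positive value of the list at 0.14 (SE 0.08, limma adjusted p = 0.895), and its NPC1-deficient values spread from 1411 to 1888 around a narrow wildtype range of 1505 to 1552. Of its exonic length 28.4% overlaps Yy2. Mbtps1 was at -0.05 (SE 0.06), Nfya, which encodes a subunit of the CCAAT-binding factor NF-Y, at -0.11 (SE 0.11), and Creb3l2, a relative of ATF6, at -0.35 (SE 0.19) from 67.0 ± 10.6 reads.

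In the wider machinery of ER folding and degradation, 36 of 37 genes had enough reads to test. By limma 0 passed and 1 had an unadjusted p under 0.05, and edgeR and DESeq2 called 0. The median log2 fold change was 0.02, with 27 positive and 9 negative, beside 7994 positive and 7392 negative over all genes tested. Txndc5, a disulfide isomerase, was the 1 gene of 36 whose groups did not overlap, where 4.27% of all genes showed none, with 2296 ± 86.6 and 2483 ± 70.1 (SD, n = 4) and a log2 fold change of 0.11 (SE 0.05, limma adjusted p = 0.705). Hyou1, an exchange factor of BiP, was at 0.17 (SE 0.08, limma adjusted p = 0.772), Pdia6, a further disulfide isomerase, at 0.13 (SE 0.06, limma adjusted p = 0.754) and Sec61a1, of the channel through which proteins enter the ER, at 0.11 (SE 0.06, limma adjusted p = 0.828).

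Genes can also be grouped by the promoter elements, which were themselves defined on known targets such as Hspa5. ERSE or ERSE-II was matched in 49 of 27025 genes (0.181%). Besides 4 members these include Calr and Canx, the lectin chaperones, and Pdia6, Dnajb11, Dnajc3, Syvn1 and Ero1b, all of the ER list above. Of the 30 genes of that list with a window, 8 (26.7%) held a match, and of 10 cytosolic heat shock genes 0 did. Of the 49 genes 29 could be tested, among them 4 members and 7 genes of the ER list. Between genotypes 0 passed by limma, beside 0.104% of all genes, and 1 (Acacb) had an unadjusted p under 0.05, beside 6.76%. Between the library sets 3 of the 29 passed (Hspa5, Spats2l and Xlr3b, all lower in libraries 3 and 4), beside 2.18% of all genes. Hspa5 is the member already described above, and of the 25 tested genes with a match that are not members 2 passed. The median log2 fold change of the 29 genes between genotypes was 0.03, 19 positive and 10 negative. Calr, Canx and Dnajb11 had log2 fold changes of 0.0061 (SE 0.05), 0.01 (SE 0.05) and -0.0068 (SE 0.05).

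Of the PERK arm and the integrated stress response, 0 of 16 genes passed by limma, 0 had an unadjusted p under 0.05, and edgeR and DESeq2 called 0, with a median log2 fold change of -0.0080. In 2 of the 16 the groups did not overlap, 1 in each direction, where 1.86% of all genes were higher and 2.41% lower without overlap. Trib3, a pseudokinase gene raised by ATF4 and CHOP, had 77.6 ± 9.15 and 65.2 ± 4.19 normalized reads (SD, n = 4), a log2 fold change of -0.24 (SE 0.14, limma adjusted p = 0.885). Chac1, a glutathione-degrading enzyme of the same pathway, had 742 ± 16.3 and 789 ± 22.5, a log2 fold change of 0.09 (SE 0.06, limma adjusted p = 0.924). Ppp1r15a, which restores translation, was at -0.12 (SE 0.08) and Aldh1l2 at 0.10 (SE 0.08).

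Chaperones outside the ER served for comparison. Of 16 cytosolic heat shock genes 0 passed by limma and 1 had an unadjusted p under 0.05, and of 8 mitochondrial ones 0 and 0; edgeR and DESeq2 called 0 in both. Of the cytosolic genes 4 fold changes were positive and 12 negative (median log2 fold change -0.04), and of the mitochondrial ones 3 and 5 (median -0.03). Hspa1b, an inducible cytosolic chaperone, averaged 235 ± 26.0 and 192 ± 9.30 (SD, n = 4) with no overlap of wildtype and NPC1-deficient libraries, a log2 fold change of -0.28 (SE 0.10, limma adjusted p = 0.507). Its near-identical neighbour Hspa1a can share its reads, which makes both values uncertain. Hspa1a was at -0.05 (SE 0.11), and its groups overlapped. Hspa9, the main mitochondrial relative of BiP, also showed no overlap, with 6120 ± 247 and 5713 ± 150 and a log2 fold change of -0.10 (SE 0.05, limma adjusted p = 0.760). Lower without overlap were thus 1 of 16 cytosolic and 1 of 8 mitochondrial genes, beside 2.41% of all genes. Hspb1 was at 0.13 (SE 0.06), Dnaja1 at -0.08 (SE 0.05), Hspd1 at -0.09 (SE 0.06), Trap1 at -0.06 (SE 0.06) and Lonp1 at -0.04 (SE 0.07). Cryab, with 34.8 ± 8.14 and 23.9 ± 11.4 reads, was at -0.63 (SE 0.34), and 17.04% of its exonic length overlaps Hspb2. Between the library sets, 2 of 16 cytosolic genes passed by limma, beside 2.18% of all genes: Hspa4 was lower in libraries 3 and 4 at -0.25 (SE 0.05, adjusted p = 0.0189) and St13, a partner of cytosolic chaperones, higher at 0.20 (SE 0.04, adjusted p = 0.0414).

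**Figure D4:**
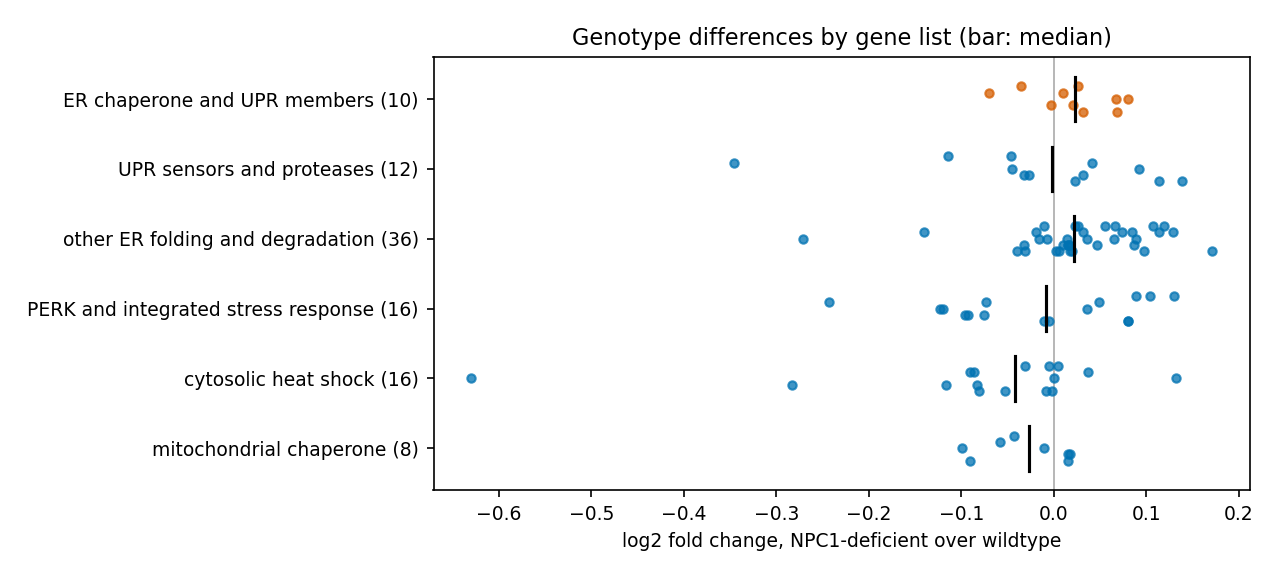
Log2 fold change, NPC1-deficient over wildtype (x axis), for each tested gene of the 6 gene lists, the number in brackets; black bars are list medians. The 10 ER members lie between -0.07 and 0.08, no gene shown passed the test, and the medians run from -0.04 to 0.02.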

How the data were processed

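Total RNA gave 8 libraries by the Illumina TruSeq RNA v2 kit, per the labels' protocols; this kit keeps no strand. The submitters' processing notes name HTSeq 0.5.4p3, DESeq2 1.0.19, CASAVA 1.8.2 and the build mm10 without roles. Which aligner was used is not given in the sources used here. Values in the deposited table are a normalized signal: read counts over a size factor, common to all genes of a library. From these deposited values whole reads could be recovered: all 199536 (100%) are whole multiples of the library's smallest value within 1e-06 of a read. A value of 0 allows up to 3 reads, or 2.69 to 3.42 normalized reads, for counting error only.

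Genes with a mean of at least 10 were tested (15386, with 9556 removed) on log2(value + 1), which understates changes of low genes, using limma 3.58.1 (R 4.3.3), its variance trend over mean level, no covariate and Benjamini-Hochberg adjustment over all genes at 0.05. The fit was tested on simulated data. Recovered reads were tested with edgeR 4.0.16 and DESeq2 1.42.0 as alternatives, beside other pseudocounts, filters and scalings, robust moderation, a replicate block, a term for library set, either set by itself, and leaving out libraries. The members, the lists and the naming rule were chosen with earlier results of these data known. The rule names all members, the sensors, up to 4 genes a list with the smallest p and any that pass, and 8 genes of like pattern. Calr, Canx, Dnajb11, Dnajc3, Syvn1, Ero1b, Acacb, Spats2l, Xlr3b, Hspa1a, Hspa4 and St13 were named after their values were seen. Positions came from GENCODE M21 (24471 of 24942 identifiers, 98.1%), on the same build as mm10. Transcripts of other genes with 95% identity over at least 100 bases were found for Hsp90b1 and Manf alone among the members, and these were the overlapping genes named there.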

Additional observations from a re-analysis of the deposited data

Results flagged for a closer look

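A single library stood far from the other 3 of its group for 5 of the 70 groups of 4 examined among the named genes, by Dixon's ratio of gap to range, and chance alone marks about 1 in 20. Among the members this was Herpud1 in wildtype 3, at 2215 normalized reads where the other wildtype libraries lay between 2072 and 2081. Npc1 stood at 139.8 in NPC1-deficient 1, above 66.1 to 70.05 in the others of that group. Among the other lists Mbtps1 was at 1748 in wildtype 3, Trib3 at 91.2 in wildtype 1 and Aldh1l2 at 361.5 in wildtype 4. Of 34 named genes checked, 0 had a genotype effect that differed between the library sets at a limma adjusted p under 0.05. The other named genes were not part of this check.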

How the results depend on the processing

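No member was called between genotypes under any alternative: over 220 values the log2 fold changes ran from -0.15 to 0.26, the smallest adjusted p was 0.123, and 27 changed sign. The number of genes called moved from 16 to 246 with DESeq2, 57 with libraries 1 and 2 only, 307 with libraries 3 and 4 only, 99 with the library set as a term, 10 with a minimum of 50, and 34 with the replicate block; it ran from 2 (without NPC1-deficient 3) to 170 (without library 1 of both groups), with 144 without wildtype 1. Replicate numbers did not pair the libraries (same-number correlations of deviations -0.0659 to -0.0169, 0 of 8 libraries best with their own number), and the block called no member. With libraries 1 and 2 only the log2 fold change was 0.0104 for Hsp90b1, -0.0475 for Xbp1, 0.0813 for Herpud1, -0.0368 for Sdf2l1, -0.129 for Creld2, -0.145 for Manf, -0.0106 for Mbtps2, 0.0083 for Mbtps1, 0.0055 for Ppp1r15a, 0.0717 for Trap1 and 0.0116 for Lonp1, and the median of the PERK list -0.0432. With libraries 3 and 4 only it was 0.0032 for Dnajb9, -0.0390 for Edem1, -0.0754 for Ern1, 0.0017 for Atf6 and -0.0842 for Eif2ak3, with medians of -0.0492 for the sensors, -0.0480 for the PERK list and -0.0898 for the mitochondrial list. Manf was at -0.00368 with quantile and -0.00493 with upper-quartile scaling. Leaving out libraries gave ranges of -0.0226 to 0.0763 for Hspa5, -0.0384 to 0.0380 for Hsp90b1, -0.0850 to 0.00584 for Herpud1, -0.0773 to 0.111 for Sdf2l1, -0.0196 to 0.248 for Creld2, -0.0316 to 0.0814 for Manf, -0.0297 to 0.0921 for Edem1, -0.0509 to 0.312 for Ern1, -0.0935 to 0.0215 for Atf6, -0.0809 to 0.0045 for Lonp1 and -0.0171 to 0.0164 for the PERK median.

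Between the library sets, 2 members passed with DESeq2 and 0 with no filter, with upper-quartile scaling, and within wildtype or NPC1-deficient libraries only; leaving out libraries gave 0 to 2. Genes that differed numbered 799 with DESeq2, 1308 within NPC1-deficient and 6 within wildtype libraries, and 27 to 912 with libraries left out, the highest without wildtype 3. The set difference was 0.0551 for Xbp1 within NPC1-deficient libraries, and -0.0251 for Dnajb9, 0.0476 for Herpud1 and -0.146 for Manf within wildtype ones; with libraries left out it ran from -0.0514 to 0.0603 for Manf and -0.264 to 0.0243 for Sdf2l1. The cause of these changes was not tested. Alternatives for the sets were chosen after seeing the data. No scaling moved the median of all genes by over 0.1. Among the named genes Ern1, Cryab, Creb3l2 and Trib3 had means under 100 normalized reads, which limits their precision.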

Other observations

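The genes whose pattern over the 8 libraries was most like the mean of the 10 members, once group means were removed, were sought among 11215 genes with a mean of at least 100. They were Zic1, a zinc finger factor gene, at Pearson r 0.98 (Spearman rho 0.95), Acbd5, a peroxisomal acyl-CoA binding protein gene, at 0.97 (rho 0.93), Hdac10 at 0.95 (rho 0.93), Rasa1 at 0.95 (rho 0.93), Pard3 at 0.95 (rho 0.98), Nufip2 at 0.94 (rho 0.88), Akap5 at 0.94 (rho 0.93) and Top2b at 0.93 (rho 0.83). The libraries share depth and composition, and no test was made. With 11215 genes compared over 8 libraries, taking the highest values of r gives high values by the choice alone. The summed normalized count of the 10 members was 34148, 35356, 31669 and 31534 in order of number among the wildtype libraries, and 33416, 35890, 32590 and 32889 among the NPC1-deficient ones. NPC1-deficient 2 held the highest value of 4 of the 10 members, more than any other library.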
